A study of Mus musculus with 2 samples.

Results

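Polycomb, SWI/SNF, NuRD and DNA methylation genes are the chromatin regulators that set which genes a developing tissue can use. The set described here holds 51 mouse genes out of 41709 entries in the deposited tables: 9 of Polycomb repressive complex 2 (PRC2), 11 of Polycomb repressive complex 1 (PRC1), 12 of SWI/SNF, 12 of the NuRD complex and the class I histone deacetylases, and 7 that write, maintain or remove DNA methylation. Each was chosen by its symbol, matched to the NCBI gene number in the tables, and all 51 were found. RNA-seq of polyadenylated RNA gave 2 libraries of whole lung from E14.5 embryos of the C57BL/6 strain. The first came from lungs labelled Prmt5 knockdown, whose sample title names Shh together with Prmt5, and the second from lungs labelled control, which the series' design text calls wildtype. Both libraries were made from 7 pooled lungs. The labels do not say how Prmt5 or Shh was altered, in which cells, or whether the control lungs carried any allele of either gene. With 1 library per group, no difference below has a replicate check and no p-value is given.

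PRC2 puts methyl groups on lysine 27 of histone H3, and PRC1 reads that mark or reaches CpG-rich DNA by itself and attaches ubiquitin to histone H2A. Both keep lineage genes of other tissues silent. SWI/SNF uses ATP to slide or evict nucleosomes and opens enhancers, while NuRD joins an ATP-driven remodeller to histone deacetylases and to proteins that bind methylated DNA. DNA methyltransferases add methyl groups to CpG sites, UHRF1 guides their upkeep behind the replication fork, and TET enzymes oxidise the mark. In lung development, Ezh2 in the epithelium and Hdac1 with Hdac2 in early endoderm are known from mouse knockouts to be needed for normal lineage choice. PRMT5 itself methylates histone arginines and has been found in contact with SWI/SNF and with MBD2 and NuRD in cultured cells.

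RefSeq promoter windows (assembly GRCm38.p6, equivalent to mm10) were matched for 43 of the 51 genes, with 58 transcription starts in all. Each window runs from 250 bases before to 50 after a start. The windows of 4 genes are shown because Mta1 of NuRD and Pcgf5 of PRC1 had the lowest and the highest log2 ratio of the 51 genes, and each is set beside a paralog, Mta2 and Pcgf2. Capitals mark the GC box GGGCGG on either strand (CCGCCC is the same box on the other strand). For Pcgf5, which has 3 listed starts, the most upstream one is shown, and the 1 start listed for Pcgf2 lies inside the span of that gene.
Mta1 (chr12:113098028-113098327, plus strand): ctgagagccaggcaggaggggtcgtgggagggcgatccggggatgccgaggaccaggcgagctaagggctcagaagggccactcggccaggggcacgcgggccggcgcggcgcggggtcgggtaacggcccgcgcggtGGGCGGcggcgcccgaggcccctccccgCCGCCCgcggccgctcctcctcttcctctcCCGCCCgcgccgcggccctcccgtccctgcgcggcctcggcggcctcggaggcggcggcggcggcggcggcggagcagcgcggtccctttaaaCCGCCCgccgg
Mta2 (chr19:8941670-8941969, plus strand): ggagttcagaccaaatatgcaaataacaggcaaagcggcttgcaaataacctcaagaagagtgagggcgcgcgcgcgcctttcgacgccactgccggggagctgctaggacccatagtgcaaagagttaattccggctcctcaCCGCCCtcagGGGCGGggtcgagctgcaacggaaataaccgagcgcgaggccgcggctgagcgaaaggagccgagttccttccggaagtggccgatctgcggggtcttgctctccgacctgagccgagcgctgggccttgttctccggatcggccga
Pcgf5 (chr19:36348079-36348378, plus strand): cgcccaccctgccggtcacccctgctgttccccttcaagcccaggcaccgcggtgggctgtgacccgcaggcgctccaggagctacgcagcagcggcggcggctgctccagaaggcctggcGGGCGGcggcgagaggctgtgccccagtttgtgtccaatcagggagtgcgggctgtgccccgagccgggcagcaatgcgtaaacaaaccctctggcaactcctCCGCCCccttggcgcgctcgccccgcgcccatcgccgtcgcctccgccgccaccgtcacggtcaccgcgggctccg
Pcgf2 (chr11:97699599-97699898, minus strand): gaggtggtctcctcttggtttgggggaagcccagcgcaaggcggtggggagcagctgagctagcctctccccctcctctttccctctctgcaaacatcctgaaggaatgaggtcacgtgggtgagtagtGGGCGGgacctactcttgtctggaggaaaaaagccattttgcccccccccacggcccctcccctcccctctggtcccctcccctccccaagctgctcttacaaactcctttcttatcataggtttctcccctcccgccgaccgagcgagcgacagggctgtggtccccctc
The Mta1 window held 81.0% G and C with 4 GC boxes and 50 CpG sites, against 61.7%, 2 boxes and 30 sites in the Mta2 window. The Pcgf5 window held 73.0% G and C with 34 CpG sites, against 61.7% and 10 CpG sites in the Pcgf2 window. A GC box stood in 48 of the 58 member windows (82.8%), and in 35.7% of all 32851 promoter windows in the table. The median ratio of observed to expected CpG was 0.850 over the member windows and 0.384 over all windows. The letters TTTGGCGC, a form of the E2F site, were found on either strand in the windows of Dnmt1 and Ezh2 (0.514% of all windows), and the form TTTCCCGC in those of Arid1a, Phf19, Smarcd1 and Suz12 (1.07% of all windows). The GLI site GACCACCCA, the hedgehog effector motif, was found on either strand in none of the member windows and in 0.253% of all windows. A match is a stretch of letters and does not show that a factor binds there.

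The Prmt5 knockdown library held 25829281 counted reads and the control library 22581490. Prmt5 had 2127 reads in the knockdown library and 2704 in the control library, 1.35-fold lower (log2 ratio -0.43, 95% counting interval -0.51 to -0.35). Shh, the hedgehog ligand of the lung epithelium, had 109 and 1124 reads in the knockdown and control libraries and was 10.9-fold lower. The 2 libraries also differed in tissue markers. Of 14 lung epithelium markers 11 were lower by at least 1.5-fold (median log2 ratio -2.12, from Shh at -3.44 and Nkx2-1 at -3.16 up to Id2 at -0.09 and Krt18 at 0.11), and their summed share of reads was 0.0671% (exact interval 0.0661% to 0.0681%) in the knockdown and 0.217% (0.215% to 0.219%) in the control library. All 11 liver markers were higher, with log2 ratios between 7.19 and 8.45 and a summed share of 1.09% (1.089% to 1.097%) in the knockdown and 0.00648% (0.00616% to 0.00682%) in the control library. All 12 markers of heart and striated muscle were higher too (3.72 to 8.47, shares of 0.722% and 0.0242%), as were 9 of 10 red blood cell markers, all 10 measured immune markers and 10 of 11 measured markers of neurons and glia. Of the mesenchyme markers 6 of 12 were lower and none higher by the size rule, but 5 had the whole counting interval above a ratio of 1. The summed share of all 12 was 1.07% in the knockdown and 1.01% in the control library. Of the endothelium markers 5 of 10 were lower and none higher (shares of 0.0723% and 0.118%). Of these marker lists only the immune list held a gene at 0, Cd8a, which had no read in either library. The part that this difference in tissue makeup has in the chromatin genes' values was not tested, and in bulk RNA fewer cells of a type and less RNA per cell cannot be told apart.

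Most of the chromatin genes had log2 ratios slightly below 0, and lower calls were found in each complex except PRC2. A gene was called higher or lower when its ratio, scaled by the trimmed mean of M values (TMM), reached 1.5 in either direction, its 95% counting interval excluded a ratio of 1 and at least 1 library held 50 reads. Of the 50 members that reached 50 reads, 2 were higher and 11 lower (22.0%), and 37 did not pass this size rule. Over all 14569 measured genes 20.7% were higher and 12.3% lower, 33.0% in either direction, so the members' share of higher calls lay below and that of lower calls above the share over all genes. The second of these did not hold under all other settings. With a ratio of 2 in place of 1.5, 2 of 50 members were lower against 4.83% of all genes. With the trend of the ratio with gene length and GC content taken out, 5 of 50 were lower against 9.78%. The excess of lower calls stayed with a minimum of 1000 reads, a setting chosen after seeing the data, where 10 of 39 were lower against 11.2%. The whole counting interval, at any size of ratio, lay below 1 in 36 members (72.0%) and above 1 in 7 (14.0%), against 37.5% and 37.2% of all measured genes. Whether an interval excludes 1 depends on read depth. Among genes with 1000 reads it lay below 1 in 31 of 39 members and above 1 in 3, against 49.5% and 35.3% of all such genes. The members' median log2 ratio was -0.27, and that of all measured genes -0.01. Together the members took 0.572% (0.569% to 0.575%) of knockdown reads and 0.812% (0.809% to 0.816%) of control reads. Scaling by total counts lowered the median of all genes by 0.11 on the log2 scale. It gave 1 higher and 15 lower members of 50, against 18.3% higher and 16.7% lower over all measured genes. The same change moved the share of higher genes among all calls to 52.3%, against 62.7% with TMM. The members' median minus that of all genes was -0.27. A change of scaling moves every log2 ratio by nearly the same amount, so this difference could not depend on the scaling. Lower calls were more frequent among genes of long and GC-rich transcripts in the whole table, as described at the end.

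**Figure D1:**
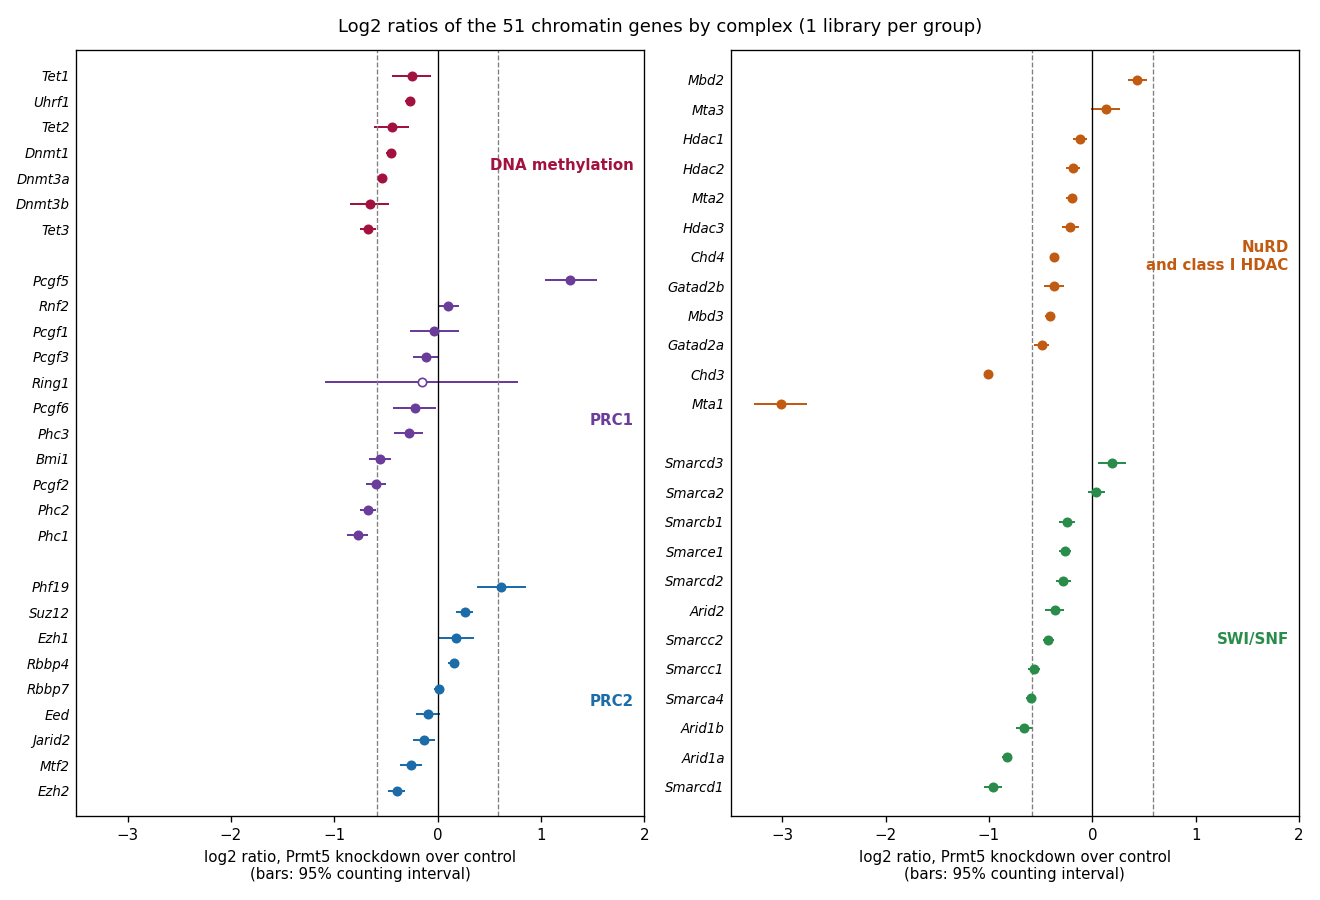
Log2 ratio of Prmt5 knockdown over control for each of the 51 genes, grouped by complex, with bars for the 95% counting interval and dashed lines at a ratio of 1.5 in either direction. The open point is Ring1, which did not reach 50 reads. Mta1 stands at -3.01 and Pcgf5 at 1.28, and all other members lie between -1.01 and 0.62.

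**Figure D2:**
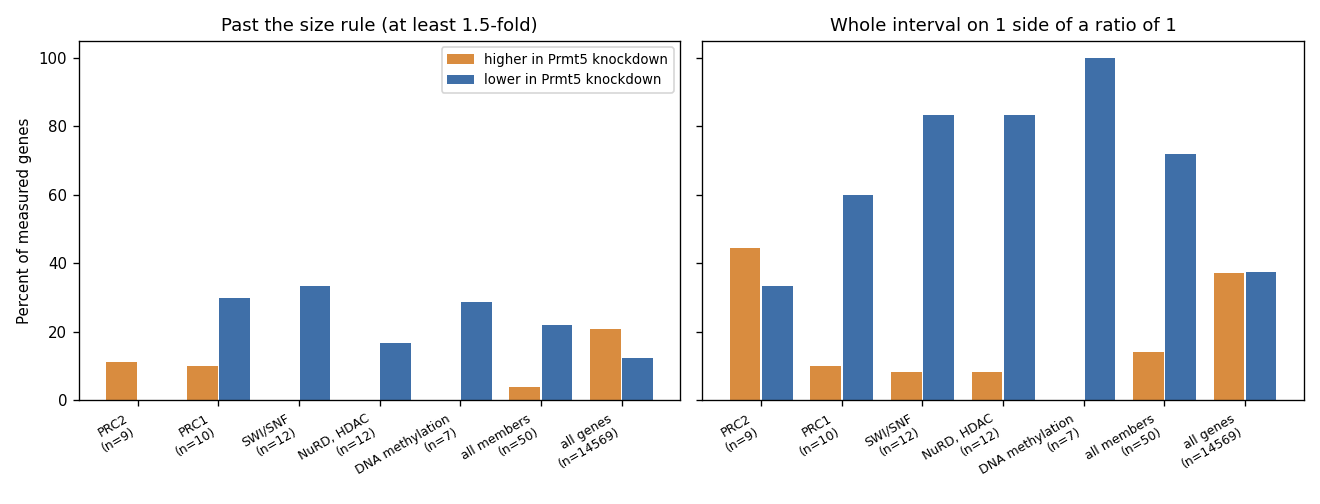
Percent of measured genes that were higher or lower in the Prmt5 knockdown library, by the size rule (left) and by the side of a ratio of 1 on which the whole counting interval lay (right), for each complex, for the 50 measured members and for all 14569 measured genes. By the right-hand measure the share of lower genes was 33.3% in PRC2, 60.0% in PRC1, 83.3% in SWI/SNF and in NuRD with HDACs, and 100% among the DNA methylation genes. It was 37.5% over all measured genes. This measure depends on read depth, and over all genes with 1000 reads it was 49.5% (not drawn).

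PRC2 genes were near balance, with the accessory subunit Phf19 higher and no gene past the rule as lower. Of the 9 genes 1 passed the size rule as higher and none as lower, against 20.7% and 12.3% of all measured genes. The median log2 ratio was 0.02, which turned to -0.093 with total counts. Phf19, a Tudor-domain protein that guides PRC2 to CpG-rich sites (NCBI gene 74016, chromosome 2, 34893752 to 34914353), was covered by 379 knockdown reads and 233 control reads. That was 1.53-fold higher (log2 0.62, 0.38 to 0.86), at the edge of the rule, and it was not called under total counts. Ezh2, the methyltransferase of dividing cells, had 2366 and 2940 reads in the knockdown and control libraries (log2 -0.40, -0.48 to -0.32), and its paralog Ezh1, the form found in resting cells, 659 and 548 (0.18, 0.02 to 0.35). The FPKM ratio of Ezh2 to Ezh1 was 5.72 in the knockdown and 8.55 in the control library, a log2 change of -0.58 (-0.76 to -0.40) that does not depend on the scaling between libraries. The core subunits went in no common direction: Suz12 stood at 0.26 (2546 and 2004 reads in the knockdown and control libraries), Eed at -0.09 (1198 and 1203 reads). The histone-binding subunits that PRC2 shares with NuRD, Rbbp4 (0.15) and Rbbp7 (0.02), took 6212 and 7310 reads in the knockdown library and 5266 and 6818 in the control library. Rbbp7 was among the most abundant members, with 125 FPKM in the knockdown and 133 FPKM in the control library. FPKM is the read count divided by gene length and library total. It allows levels of different genes to be set side by side only as far as the lengths used fit the transcripts present. The accessory subunits Jarid2 (-0.13) and Mtf2 (-0.26) did not pass the rule. Rbbp7 stood at -0.093 with total counts and at -0.13 once the trend with gene length and GC content was taken out, a step that put Jarid2 at 0.05. Exons of the Rbbp4 gene overlap annotated exons on the other strand over 18.1% of their length. As the strand setting of the counts is not known, that part of its reads is uncertain.

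In PRC1 the Polyhomeotic genes Phc1 and Phc2 and the canonical subunit Pcgf2 were lower, and the variant subunit Pcgf5 was higher. Of 10 measured genes 3 were lower and 1 was higher (median log2 ratio -0.25), against 12.3% and 20.7% of all measured genes. The call of Phc2 was lost with the length and GC trend taken out. The Polyhomeotic proteins polymerise and compact Polycomb domains. Phc1 (gene 13619, chromosome 6, 122317731 to 122340227) was covered by 1259 knockdown reads and 2030 control reads and was 1.71-fold lower (log2 -0.77, -0.88 to -0.67). Phc2 (gene 54383, chromosome 4, 128654655 to 128752881) had 2214 and 3324 reads in the knockdown and control libraries and was 1.59-fold lower (-0.67, -0.75 to -0.59). Phc3 did not pass the rule (802 and 919 reads, -0.28). The summed level of the family was 36.5 FPKM in the knockdown and 62.9 FPKM in the control library, with Phc2 at 57.8% and 57.5% of it.

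The PCGF proteins pair with the ubiquitin ligase RNF2 or RING1 and define which kind of PRC1 forms. Pcgf2, also known as Mel18, and Bmi1 belong to the canonical, CBX-containing form. Pcgf2 (gene 22658, chromosome 11, 97688821 to 97702434) had 1523 reads in the knockdown and 2173 in the control library (log2 -0.60, -0.69 to -0.50), and Bmi1 had 1223 and 1698 (-0.56, -0.66 to -0.45). These values lay on the 2 sides of the threshold of 1.5-fold, and the ratio of Pcgf2 to Bmi1 was 1.67 in the knockdown and 1.72 in the control library (log2 change -0.04, -0.18 to 0.10). Pcgf5, a partner in a variant PRC1 linked to active ubiquitin deposition (gene 76073, chromosome 19, 36348329 to 36460970), had 475 and 184 reads in the knockdown and control libraries. It was 2.43-fold higher (log2 1.28, 1.04 to 1.54), the highest log2 ratio of the 51 members, yet its level stayed the lowest of its family. It made 4.45% of the family's summed FPKM in the knockdown and 1.48% in the control library. The other variant-complex subunits Pcgf1 (308 and 297 reads in the knockdown and control libraries, -0.03), Pcgf3 (1066 and 1086, -0.11) and Pcgf6 (366 and 403, -0.22) did not pass the rule. The catalytic subunit Rnf2 had 1682 and 1479 reads in the knockdown and control libraries (0.10, with an interval that reached 0 and a value of -0.0083 with total counts). Its paralog Ring1 had 21 and 22 reads and was not assessed, and the gene length behind its FPKM was 2.52 times its annotated exons.

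In SWI/SNF the subunits Smarcd1, Arid1a and Arid1b and the ATPase Smarca4 were lower. With the length and GC trend taken out, of these only Smarcd1 was called, 1 of 12 genes against 9.78% of all genes. By the size rule as first given 4 of 12 genes were lower and none was higher (median log2 ratio -0.40), against 12.3% and 20.7% of all measured genes. The whole interval lay below a ratio of 1 for 10 of the 12. Smarcd1, the BAF60A subunit that contacts transcription factors (gene 83797, chromosome 15, 99702287 to 99713995), had 1729 reads in the knockdown and 3172 in the control library, 1.94-fold lower (log2 -0.96, -1.04 to -0.87). Its paralog Smarcd3, the BAF60C subunit known for its role in heart development, had 997 and 825 reads in the knockdown and control libraries (0.19, 0.05 to 0.32). The FPKM ratio of Smarcd3 to Smarcd1 was 0.926 in the knockdown and 0.418 in the control library, 2.22-fold higher. The lengths behind the FPKM were 0.383 times the annotated exons for Smarcd3 and 0.783 times for Smarcd1. Heart and striated muscle markers were higher in the knockdown library. Exons on the other strand, mostly of Chpf2, overlap 48.2% of the annotated Smarcd3 exon length. The source of the Smarcd3 reads was not tested. Smarcd2, the most abundant of the 3, stood at -0.28 with 43.2 and 56.7 FPKM in the knockdown and control libraries.

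The ARID subunits tell apart the BAF and PBAF forms of SWI/SNF. Arid1a of BAF (gene 93760, chromosome 4, 133679008 to 133756769) had 6257 reads in the knockdown and 10446 in the control library, 1.77-fold lower (log2 -0.82, -0.87 to -0.78). Arid1b, its alternative (gene 239985, chromosome 17, 4994297 to 5347656), had 2196 and 3266 reads in the knockdown and control libraries (-0.66, -0.74 to -0.58). Arid2 of PBAF had 1891 and 2298 reads (-0.37, -0.45 to -0.28) and did not pass the rule. The counting intervals of both BAF subunits lay below that of Arid2 in these 2 libraries. Of the ATPases, Smarca4, also called BRG1 (gene 20586, chromosome 9, 21616106 to 21704230), had 6856 and 9776 reads in the knockdown and control libraries (-0.60, -0.64 to -0.55). Smarca2, also called BRM, had 2353 and 2158 (0.04, -0.04 to 0.13, and -0.07 with total counts). Smarca4 was therefore 2.01 times as abundant as Smarca2 in the knockdown and 3.12 times in the control library by FPKM (log2 change -0.64, -0.73 to -0.54). The size of both ratios, though not their change, rests on the gene lengths behind the FPKM. These were 0.279 times the annotated exons for Smarca2 and 0.894 times for Smarca4. The scaffold and core subunits lay between, with Smarcc1 at -0.56, Smarcc2 at -0.43, Smarce1 at -0.27 and Smarcb1 at -0.25. Smarcc1 (4182 and 5828 reads in the knockdown and control libraries) fell just short of the rule, and Smarca4 passed it narrowly. With DESeq2 size factors Smarca4 and Pcgf2 were no longer called.

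NuRD held the member with the lowest log2 ratio, Mta1, beside a lower Chd3. By the size rule 2 of 12 genes were lower and none was higher (median log2 ratio -0.29), against 12.3% and 20.7% of all measured genes. The whole interval lay below a ratio of 1 for 10. Mta1, a scaffold subunit that binds the deacetylases (gene 116870, chromosome 12, 113098248 to 113137206), had 146 reads in the knockdown and 1113 in the control library. It was 8.06-fold lower (log2 -3.01, -3.27 to -2.76). Neither paralog passed the size rule: Mta2 had 5289 and 5732 reads in the knockdown and control libraries (-0.20, -0.25 to -0.15), and Mta3 916 and 789 (0.13, -0.01 to 0.27). Mta1 made 2.73% of the family's summed FPKM in the knockdown and 16.9% in the control library, while Mta2 made 83.1% and 73.2%. The ratio of Mta3 to Mta1 was 5.17 in the knockdown and 0.584 in the control library, 8.85-fold higher. No annotated exon of another gene overlaps the exons of Mta1, and the length behind its FPKM was 0.893 times its annotated exons.

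Genes next to Mta1 on chromosome 12 were described as well, chosen after the value of Mta1 was seen. Within 200 kb, 9 other genes reached 50 reads. Just downstream of Mta1, Crip2, a LIM-domain gene, had 173 reads in the knockdown and 738 in the control library (log2 -2.17, -2.42 to -1.94). Tmem121 had 86 and 315 reads (-1.95, -2.32 to -1.61). Between them, Crip1 was higher (886 and 338 reads in the knockdown and control libraries, 1.30) and Tedc1 was not past the rule (-0.28). The 5 genes upstream, Pacs2, Btbd6, Brf1, Nudt14 and Jag2, ran from -0.50 to -0.23 and none passed the rule.

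**Figure D3:**
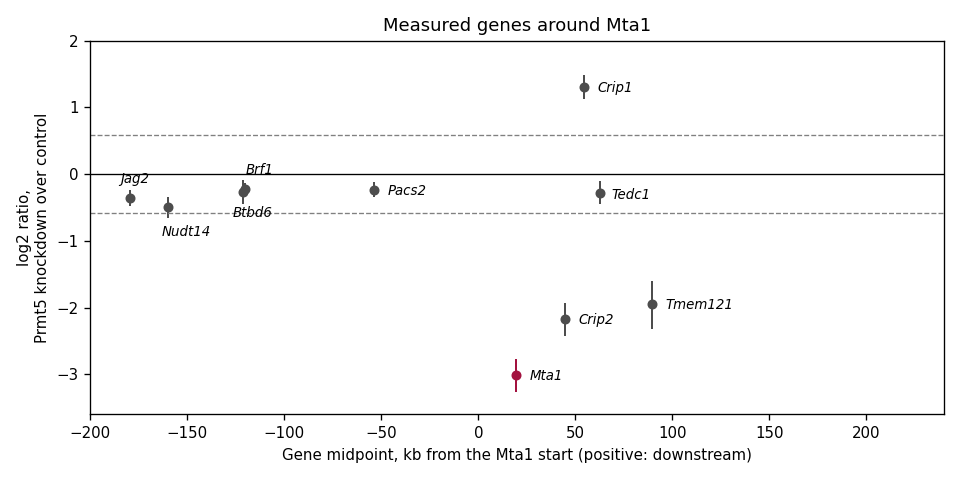
Log2 ratio of Prmt5 knockdown over control for measured genes within 200 kb of Mta1, by the distance of each gene's midpoint from the Mta1 start in kb, with bars for the 95% counting interval and dashed lines at a ratio of 1.5 in either direction. Mta1 (-3.01), Crip2 (-2.17) and Tmem121 (-1.95) lie below the lower line, Crip1 (1.30) lies above the upper line, and the other 6 genes lie between -0.50 and -0.23.

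Of the remodelling ATPases of NuRD, Chd3 (gene 216848, chromosome 11, 69343273 to 69369499) had 7771 reads in the knockdown and 14769 in the control library, 2.01-fold lower (log2 -1.01, -1.05 to -0.97). Chd4, which can take its place in the complex, had 10799 and 13156 reads in the knockdown and control libraries (-0.37, -0.41 to -0.33). Chd4 had 62.3 FPKM and Chd3 41.5 FPKM in the knockdown library, against 86.7 FPKM for Chd4 and 90.3 FPKM for Chd3 in the control library (log2 change of their ratio 0.64, 0.59 to 0.70). The methyl-CpG-binding subunit Mbd2 stood at 0.43 (2331 and 1628 reads in the knockdown and control libraries, 0.34 to 0.53). Its paralog Mbd3, which binds methylated DNA weakly in mammals, stood at -0.41 (6038 and 7568 reads, -0.46 to -0.36). Neither passed the size rule. Because their signs were opposite, the ratio of Mbd3 to Mbd2 was 2.49 in the knockdown and 4.47 in the control library (log2 change -0.84, -0.95 to -0.74). Mbd3 was the most abundant of all 51 members in both libraries, with 144 FPKM in the knockdown and 207 FPKM in the control library. The zinc-finger scaffolds Gatad2a (-0.49) and Gatad2b (-0.37) did not pass the rule. No deacetylase passed the rule: Hdac1 stood at -0.12, Hdac2 at -0.19 and Hdac3, which works in corepressor complexes other than NuRD, at -0.21. Hdac2 was 2.26 times as abundant as Hdac1 in the knockdown and 2.36 times in the control library by FPKM. This order rests on the gene lengths behind the FPKM, which were 0.434 times the annotated exons for Hdac2 and 1.15 times for Hdac1. The reads were closer, with 3905 for Hdac2 and 3519 for Hdac1 in the knockdown and 4192 and 3612 in the control library. A processed copy in the table, Hdac1-ps, had 910 and 1059 reads in the knockdown and control libraries, and how reads were divided between it and Hdac1 is not known.

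**Figure D4:**
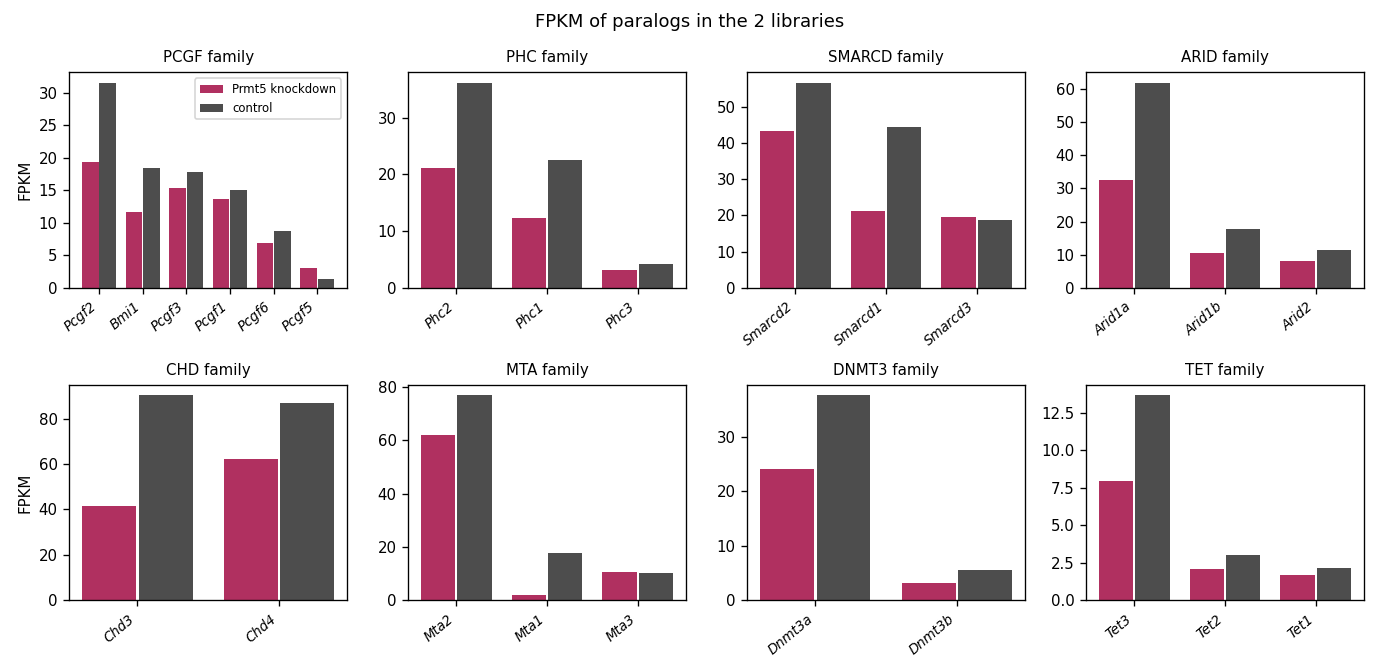
FPKM of paralogs in 8 families, with the Prmt5 knockdown library on the left of each pair of bars and the control library on the right, 1 library each and no error bars. Mta1 has 2.04 and 17.8 FPKM in the knockdown and control libraries and Chd3 41.5 and 90.3 FPKM, whereas Mta3 (10.5 and 10.4 FPKM) and Smarcd3 (19.7 and 18.6 FPKM) are nearly level.

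All 7 DNA methylation genes had log2 ratios below 0, most of them short of the size rule, which called Dnmt3b and Tet3. The rule called 2 of 7 genes lower and none higher (median log2 ratio -0.45), against 12.3% and 20.7% of all measured genes. With the length and GC trend taken out it called none in either direction. The whole interval lay below a ratio of 1 for all 7. It did so for 6, without Tet1, when only genes with 50 control reads entered the scaling and when the length and GC trend was removed. Dnmt1, the maintenance methyltransferase, had 7375 reads in the knockdown and 9518 in the control library (-0.45, -0.50 to -0.41). Its guide Uhrf1 had 6602 and 7491 (-0.27, -0.31 to -0.22). Both are made in S phase. The 15 proliferation markers, among them Rrm2 (0.79), Mki67 (0.43), Top2a (-0.32) and Gins2 (-0.36), had a median of 0.10 with 1 higher and none lower. The whole interval lay above a ratio of 1 for 8 of them and below it for 7. Their summed share of reads was 0.387% in the knockdown and 0.398% in the control library. Whether the values of Dnmt1 and Uhrf1 follow the number of dividing cells was not tested. Of the de novo enzymes, Dnmt3a had 6065 and 8311 reads in the knockdown and control libraries (-0.54, -0.59 to -0.49) and did not pass the rule, while Dnmt3b (gene 13436, chromosome 2, 153649411 to 153687730) had 374 and 557 (-0.66, -0.85 to -0.47). The ratio of Dnmt3b to Dnmt3a was 0.136 in the knockdown and 0.148 in the control library, and the interval of its log2 change (-0.32 to 0.07) included 0. Among the TET dioxygenases, Tet3 (gene 194388, chromosome 6, 83362373 to 83457208) was the most abundant, with 2408 and 3625 reads in the knockdown and control libraries, and was 1.60-fold lower (-0.67, -0.75 to -0.60). Tet2 (489 and 628 reads, -0.44) and Tet1 (440 and 493 reads, -0.25) did not pass the rule. The family's summed level was 11.7 FPKM in the knockdown and 18.9 FPKM in the control library.

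**Figure D5:**
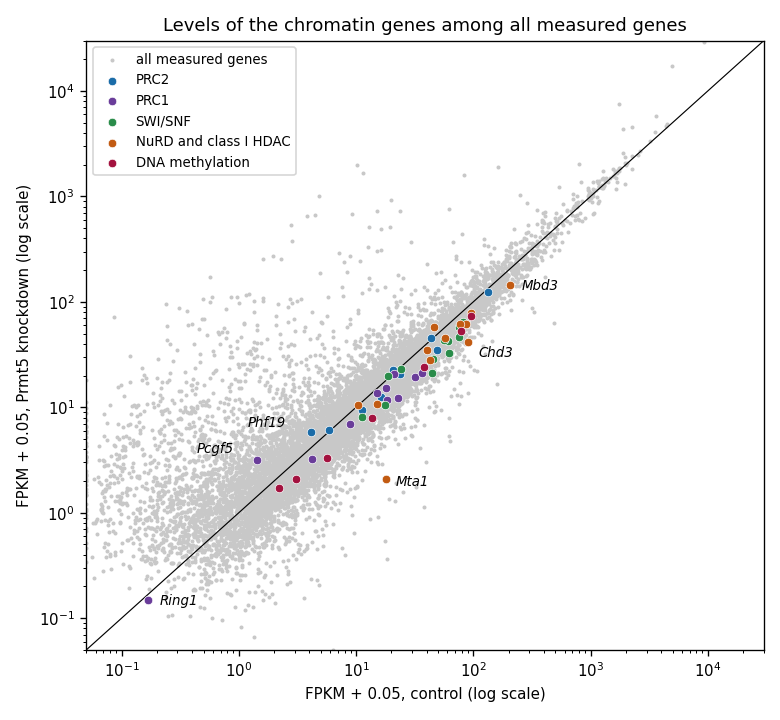
FPKM in the Prmt5 knockdown library (vertical) against the control library (horizontal), both on log scales after adding 0.05, for all measured genes in grey and the 51 members in colour, with the line of equal FPKM. Apart from Ring1 the members have between 1.38 and 207 FPKM in the control library and follow the lower side of the line, with Mta1 farthest below it and Pcgf5 above it.

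A further 5 lists held 73 genes. The last list holds fetal regulators, and the others hold genes of the same complexes or linked to them. Of the 73 genes 61 were measured, 12 higher (19.7%) and 9 lower (14.8%), against the 20.7% and 12.3% of all measured genes. The fetal regulators gave 5 of the 12 higher calls and none of the lower ones. Of the 12 higher genes 9 reached 50 reads in the knockdown library only, so they could enter these counts and medians only by being high there, and nothing is read from the lists' shares. Among 16 other Polycomb genes 3 were lower and none higher (median log2 ratio -0.23). They were Bcor (1883 and 2762 reads in the knockdown and control libraries, -0.64), a corepressor of the PCGF1 complex, and Asxl1 (-0.59) and Asxl3 (-0.62), partners of the deubiquitinase BAP1. Among 14 measured further SWI/SNF subunits 3 were lower and 1 higher (median -0.18). Dpf1, a subunit known from neurons, had 249 and 547 reads in the knockdown and control libraries (-1.22), while 10 of 11 measured neuron and glia markers were higher there. Bicra (-0.99) and Bcl7a (-0.78) were lower too. Dpf3, a subunit known from heart and muscle, had 134 and 17 reads in the knockdown and control libraries (2.86, 2.16 to 3.72). It reached 50 reads in the knockdown library only, where all 12 heart and striated muscle markers were higher. The part that tissue makeup has in the values of Dpf1 and Dpf3 was not tested.

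Among 13 other NuRD and methyl-CpG genes 3 were higher and 2 lower (median -0.25), and all 3 higher ones reached 50 reads in the knockdown library only. The NuRD-recruiting factors Sall1 (287 and 10 reads in the knockdown and control libraries, log2 4.69) and Sall4 (54 and 6 reads, 2.99) and the neural remodeller Chd5 (73 and 38 reads, 0.85) were higher. The small NuRD-associated protein Cdk2ap1 (3536 and 5150 reads, -0.63) was among the lower genes. Among 11 measured other DNA methylation genes 3 were higher and 1 lower (median -0.03). Apobec2, a deaminase-family gene of heart and skeletal muscle, had 806 and 3 reads in the knockdown and control libraries (7.77, 6.43 to 10.27). The mitochondrial isocitrate dehydrogenase Idh2 (0.72) and the zinc-finger gene Cxxc5 (0.74) were higher as well. Trim28, the corepressor that keeps transposons methylated, was lower (11844 and 17045 reads in the knockdown and control libraries, -0.61).

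Fetal regulators, most of them known as genes that Polycomb complexes silence outside their own tissues, made the last of these lists. Of 16 genes 7 were measured, 5 of them higher and none lower (median log2 ratio 2.67), and 4 of these 5 reached 50 reads in the knockdown library only. Gata4, a factor of heart, liver and gut, had 3199 reads in the knockdown and 408 in the control library (2.89, 2.74 to 3.04). Lin28b, a fetal inhibitor of let-7 maturation, had 333 and 49 reads (2.67), Pax9, a factor of the pharyngeal pouches, 76 and 23 (1.62), and the muscle stem cell factor Pax7 104 and 3 (4.82, 3.44 to 7.33). Igf2bp1 (-0.48) and Hmga2 (-0.20) did not pass the rule. Of the 9 unmeasured genes, Hoxd11 and Hoxd13 had no read in either library and Cdkn2a, the classic Polycomb target of senescence, had 1 read in each. The 5 higher genes stood in the library that also carried the liver, heart and striated muscle markers, and the share of those tissues in these reads was not tested.

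Gene length went along with the ratio over the whole table, and GC content did so mainly in the most GC-rich transcripts. Across 20 equal bins of gene length, the median log2 ratio was 0.26 in the shortest genes and -0.19 in the longest, and the percent of lower calls was 5.52% and 20.1%. Across 20 bins of transcript GC content, lower calls made 5.67% of the bin with the least GC and 25.9% of the bin with the most. The median log2 ratio was 0.04 and -0.22 in the same bins. Higher calls made 16.7% and 17.3% of them, and 27.4% of bin 15. In bin 12, which spans 50.93% to 51.94% GC, the median was -0.02 and lower calls made 12.5%. The measured members had a median length of 3983 bases, against 2897 over all measured genes, and a median GC content of 51.2%, against 50.02%. After the bin medians were subtracted, an alternative chosen after seeing the data, 5 of 50 members were lower, against 9.78% of all genes (Mta1 at -2.94, Smarcd1 at -0.85, Chd3 at -0.77, Phc1 at -0.65 and Pcgf2 at -0.61) and Pcgf5 (1.49) and Phf19 (0.59) were higher, against 19.9% of all genes. Arid1a (-0.58), Arid1b (-0.49), Smarca4 (-0.38), Phc2 (-0.31), Dnmt3b (-0.52) and Tet3 (-0.44) kept their sign without passing the rule. The members' median was then -0.26, with 35 members whose whole interval lay below a ratio of 1 and 9 above, against 34.8% and 36.3% of all genes.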

How the data were processed

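Polyadenylated RNA of 2 pools of whole mouse lung was measured by RNA-seq. The authors deposited raw read counts per gene and FPKM values. Bowtie2 2.2.3, TopHat2 2.0.12, HTSeq 0.6.1 and build mm10 are named in the submitters' processing notes. Which annotation was counted, whether by strand, and how multi-mapping reads were handled is not given in the sources used here. The deposited FPKM equalled the count over a gene length and the library total, with whole lengths within 0.001 bp for 100% of 22831 genes with reads in both libraries. Symbols came from RefSeq genes of GRCm38.p6 (40269 entries matched, and unmatched entries held 0.153% of knockdown and 0.175% of control reads). Exon lengths, exon overlaps and transcript GC came from GENCODE vM21.

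Counts were scaled by TMM in edgeR 4.0.16 under R 4.3.3 (factor 0.963 for knockdown, 1.04 for control). Ratios used a prior count of 0.5, and intervals are exact 95% Clopper-Pearson intervals of the counts given their sum (scipy 1.17.1). Intervals of paralog ratios are normal approximations from the 4 counts. All cover counting error only, since 1 library per group shows no variation between animals or libraries. They treat reads as independent, although PCR copies are not independent molecules. The size rule and list counts are descriptions, with no test. DESeq2 1.42.0 gave size factors for an alternative. The method was checked on simulated counts. All members are named, with up to 5 genes past the rule of each further list (some are not reported here) and the extreme genes of marker lists used beside a result. Members, lists, motifs and settings were chosen with earlier results of these data known.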

Additional observations from a re-analysis of the deposited data

How the results depend on the processing

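The counts of 2 higher and 11 lower members are relative to the scaling. Higher members numbered 1 of 50 with total counts, against 18.3% of all genes. They numbered 1 with FPKM at a pseudocount of 0.1 (18.0% of all genes) and 1 at a pseudocount of 1 (14.6%). With a ratio of 2 there was 1 (14.0%). With a minimum of 1000 reads, a setting chosen after seeing the data, there were 0 of 39 (12.6%). Lower members numbered 2 of 50 with a ratio of 2 (Mta1 and Chd3), against 4.83% of all genes. They numbered 5 of 50 with the length and GC trend removed, against 9.78%, so both settings end the excess of lower calls over all genes. The excess stayed with a minimum of 1000 reads, where 10 of 39 members were lower, against 11.2%. Members with the whole interval above a ratio of 1 numbered 4 with total counts, 11 with TMM over genes that had 50 control reads and 3 with the minimum of 1000 reads. Over all genes, higher calls numbered 1956 with a minimum of 200 reads and 780 with 1000, and lower calls 703 with a ratio of 2 and 693 with 1000 reads. The PRC2 median moved to -0.093 with total counts, -0.093 with FPKM at either pseudocount, -0.090 with 1000 reads and 0.082 with TMM over genes with 50 control reads, so its sign is not defined. That of SWI/SNF moved to -0.51 with total counts, -0.50 with FPKM at 0.1 and -0.48 at 1. That of NuRD with HDACs moved to -0.40 with total counts, -0.40 and -0.38 with FPKM, -0.48 as a mean and -0.37 with 1000 reads, that of PRC1 to -0.58 with 1000 reads, and that of DNA methylation to -0.39 with TMM over genes with 50 control reads and -0.34 with the trend removed. The cause of these shifts was not tested. No called member changed sign under any setting tried. Called genes lay at least 1.5-fold from a ratio of 1, farther than a change of scaling moved any gene. In most of these settings a change of sign was therefore not possible, and nothing is read from its absence. No paired analysis was possible because each group has 1 library, and leaving out a replicate was not possible for the same reason. Depth limited Ring1, whose 21 and 22 reads in the knockdown and control libraries gave an interval of -1.09 to 0.78.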
